A study of Mus musculus with 24 samples.

Results

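The NF-kappaB feedback and survival genes described here are 10 of the 24421 genes counted in this series: Tnfaip3, Nfkbia, Nfkbiz, Nfkbid, Nfkb1, Nfkb2, Rel, Relb, Birc3 and Bcl2a1b. They were taken by gene symbol and were selected with their levels across tissues and ages in view, so those levels and the differences between groups are given as a description with no p-value. Where a fit across all genes called a member, the count is printed and nothing is read from it. RNA was measured in CD8+ T cells sorted as CD45+CD3+CD8+ from the pancreas or blood of KC mice and of WT B6 mice. KC mice are a pancreatic cancer model, and the labels do not describe its alleles. KC pancreas gave 12 libraries (3 at 4 weeks, 2 at 9 weeks, 3 at 13 weeks, 2 at 20 weeks and 2 at 30 weeks of age). KC blood gave 9 libraries (2, 1, 3, 1 and 2 at the same ages). WT mice gave 1 pancreas library at 9 weeks, 1 pancreas library at 30 weeks and 1 blood library at 30 weeks. The labels do not say which libraries come from separate animals, so spreads and p-values measure only the variation between these libraries.

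NF-kappaB is a family of dimeric transcription factors. Resting cells hold the dimers in the cytoplasm bound to inhibitors, and signals through the T cell receptor, co-stimulatory receptors and TNF family receptors lead to destruction of the inhibitor and entry of the dimer into the nucleus. Several of its target genes encode its own inhibitors, which limits the duration of the response, while others encode proteins that protect the cell from death. In the set, Tnfaip3 (A20) encodes a ubiquitin-editing enzyme that stops signalling upstream of the kinase complex, Nfkbia encodes the classical inhibitor IkBalpha, and Nfkbiz and Nfkbid encode the nuclear proteins IkBzeta and IkBNS. Nfkb1, Nfkb2, Rel and Relb encode the subunits p105/p50, p100/p52, c-Rel and RelB. Birc3 encodes the ubiquitin ligase cIAP2, and Bcl2a1b encodes a member of the A1 group of anti-apoptotic BCL2 proteins.

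The promoters are shown because most members are known NF-kappaB targets, and the kappaB motif can be read in the window before the start site. RefSeq promoter windows (GRCm38.p6, 250 bases before to 50 bases after the start) matched 7 of the 10 members with 12 windows; Nfkbiz, Nfkb1 and Relb had no entry. The 250 bases before the start are printed 5′ to 3′ on the strand of the gene for 6 windows. Capitals mark every match, on either strand, to the 10-base kappaB consensus, and the Bcl2a1b window, which held no match, is shown beside the others.
Tnfaip3, chr10:19015411-19015660, minus strand: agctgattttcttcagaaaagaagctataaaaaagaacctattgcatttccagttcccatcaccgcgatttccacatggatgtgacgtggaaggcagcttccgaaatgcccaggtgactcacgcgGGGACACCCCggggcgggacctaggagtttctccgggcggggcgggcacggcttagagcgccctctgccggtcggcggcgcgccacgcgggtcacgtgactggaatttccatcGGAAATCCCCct
Nfkbia, chr12:55492648-55492897, minus strand: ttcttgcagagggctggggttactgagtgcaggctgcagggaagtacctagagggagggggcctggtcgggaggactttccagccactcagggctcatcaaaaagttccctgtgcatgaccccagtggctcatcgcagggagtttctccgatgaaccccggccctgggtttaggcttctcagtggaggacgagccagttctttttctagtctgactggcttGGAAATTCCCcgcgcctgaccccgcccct
Nfkbid, chr7:30422156-30422405, plus strand: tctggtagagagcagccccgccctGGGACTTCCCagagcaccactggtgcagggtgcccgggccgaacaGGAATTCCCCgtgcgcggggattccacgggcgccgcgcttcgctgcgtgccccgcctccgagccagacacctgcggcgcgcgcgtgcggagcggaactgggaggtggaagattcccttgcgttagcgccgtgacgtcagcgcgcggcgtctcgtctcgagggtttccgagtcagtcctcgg
Nfkb2, chr19:46304487-46304736, plus strand: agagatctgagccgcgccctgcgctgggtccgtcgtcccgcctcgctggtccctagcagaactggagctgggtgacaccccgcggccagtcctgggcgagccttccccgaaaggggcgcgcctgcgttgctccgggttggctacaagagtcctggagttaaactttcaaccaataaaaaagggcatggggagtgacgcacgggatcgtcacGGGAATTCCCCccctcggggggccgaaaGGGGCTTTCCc
Rel, chr11:23770970-23771219, minus strand: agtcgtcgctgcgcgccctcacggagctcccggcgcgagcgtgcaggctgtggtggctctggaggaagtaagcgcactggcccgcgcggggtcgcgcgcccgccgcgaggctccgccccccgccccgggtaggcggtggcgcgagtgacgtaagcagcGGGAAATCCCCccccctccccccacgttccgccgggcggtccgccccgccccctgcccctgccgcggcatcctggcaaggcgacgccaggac
Bcl2a1b, chr9:89199023-89199272, plus strand: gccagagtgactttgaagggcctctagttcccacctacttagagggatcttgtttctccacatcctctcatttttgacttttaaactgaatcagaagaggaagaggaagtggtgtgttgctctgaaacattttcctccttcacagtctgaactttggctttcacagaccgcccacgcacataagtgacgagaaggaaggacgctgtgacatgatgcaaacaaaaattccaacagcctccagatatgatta

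The kappaB consensus was found in 5 of the 7 members with a window (Tnfaip3, Nfkbia, Nfkbid, Nfkb2 and Rel). Counted by window, 7 of the 12 member windows held it, beside 8.46% of all 32851 promoter windows. A T-rich form, GGGNNTTTCC, which overlaps the consensus in part, was found in 4 of the 7 members (Tnfaip3, Nfkbia, Nfkb2 and Rel). It was in 6 of the 12 member windows, beside 1.63% of all windows. Both strands were searched. The printed Tnfaip3 window held 1 match that began 125 bases before the start and 1 that began 12 bases before it. It also held the only match of the set to the AP-1 site (TGACTCA or TGAGTCA), which began 136 bases before the start and is printed in lower case; 5.20% of all windows held one. The Nfkbid window held the only match to the cyclic AMP response element TGACGTCA, 51 bases before the start, a motif found in 1.79% of all windows. No letters of the kappaB consensus were found in the Birc3 and Bcl2a1b windows. Members with a match included both Tnfaip3 and Nfkbia, whose levels correlated at -0.05 over the 24 libraries (Pearson's r of log2(CPM + 1)).

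**Figure D1:**
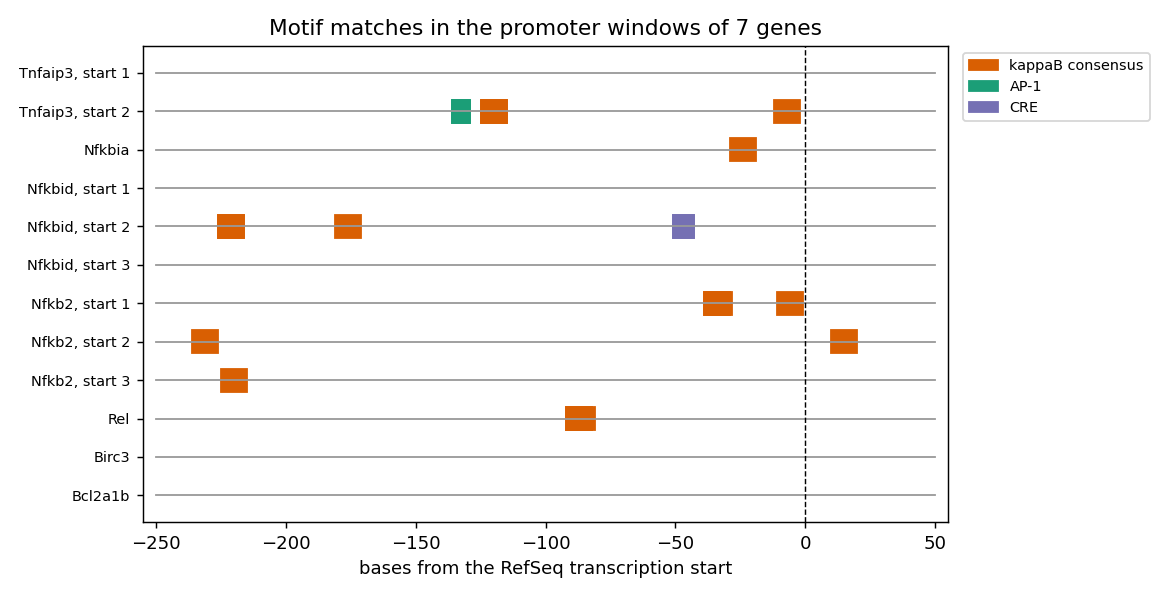
Positions of motif matches in the 12 RefSeq promoter windows of 7 members, with the distance in bases from the transcription start (dashed line) on the horizontal axis and 1 line per window; boxes are matches to the kappaB consensus, the AP-1 site and the cyclic AMP response element. Of the 12 windows, 7 held the kappaB consensus, and the Birc3 and Bcl2a1b windows held none of the 3 motifs.

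The files hold whole-number counts per gene, with 6352070 to 16716169 counts in genes per library. Levels are given as CPM, counts scaled to the library's total of counts in genes. Cd3e and Cd8a, which define the sorted population, were present in all KC libraries, with median Cd8a levels of 1277 CPM in pancreas and 1094 CPM in blood. RNA of other cells was also counted: summed over 25 acinar genes it ranged from 0.103 to 10959 CPM in KC pancreas and from 0.116 to 91.1 CPM in KC blood, and summed over 12 macrophage genes from 2.43 to 567 CPM and from 3.36 to 414 CPM. Traces of genes that are abundant in 1 library placed the libraries in 2 sets of 12 that share such traces, here called carry-over sets. The first set holds the KC pancreas libraries of 4 and 13 weeks, 3 KC blood libraries and all 3 WT libraries, and the second holds the others. Age, strain and carry-over set therefore cannot be fully told apart. In sorted bulk RNA, fewer cells of a type and less RNA per cell cannot be told apart either.

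Tnfaip3 (chr10:19000910-19015657 in mm10, minus strand) was the member with the clearest separation of tissues. In KC blood it was at 9.91 and 15 CPM at 4 weeks, 132.4 at 9 weeks, 9.97, 75.0 and 35.0 at 13 weeks, 78.8 at 20 weeks, and 119 and 66.2 CPM at 30 weeks. In KC pancreas it was at 325, 528 and 792 CPM at 4 weeks, 232 and 358 at 9 weeks, 192, 50.9 and 161 at 13 weeks, 491 and 249 at 20 weeks, and 1309 and 392 CPM at 30 weeks. Thus 11 of 12 pancreas libraries lay above the highest blood library, and the 13-week library Sample_132P8 lay inside the blood range. The medians were 342 CPM in pancreas and 66.2 CPM in blood, a ratio of 5.16. On totals scaled by TMM, which corrects for the composition of the libraries, the ratio of medians was 6.61 and all 12 pancreas libraries lay above every blood library. The share of all genes that separate in this way is not given, here or for the counts of libraries below. Such counts therefore do not show that a separation is unusual. WT blood was at 66.0 CPM, within the KC blood range, and WT pancreas was at 97.7 and 183 CPM, within the lower part of the KC pancreas range.

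Ratios between members within a library do not depend on how the library is scaled. Tnfaip3 made up 14.7% to 55.3% of the summed counts of the 10 members in KC pancreas (median 39.2%), and 2.07% to 19.1% in KC blood (median 10%). Its counts exceeded those of Nfkbia by a median of 7.01-fold in pancreas and 1.30-fold in blood, and this ratio was above every KC blood library in 10 of 12 KC pancreas libraries. Against Nfkb1, the same comparison gave median ratios of 4.69 and 0.635 and again 10 of 12 libraries. Against Rel, Tnfaip3 stood at median ratios of 2.30 in pancreas and 0.564 in blood, with 7 of 12 pancreas libraries above every blood library. Between the subunits Rel and Nfkb1 the median ratio was 2.26 in pancreas and 1.11 in blood, and no pancreas library lay above the blood range.

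Nfkbia (chr12:55489410-55492647, minus strand), the classical feedback inhibitor, did not separate the tissues. It ranged from 5.64 to 158 CPM in KC blood with a median of 57.8, and from 2.32 to 134 CPM in KC pancreas with a median of 55.5. The groups overlapped fully, and no pancreas library lay above the highest blood library. The ratio of medians was 0.959 on CPM and 1.41 on TMM-scaled totals, so its direction depends on the scaling. WT blood was at 25.5 CPM and WT pancreas at 24.7 and 65.7 CPM, all inside the KC ranges.

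Nfkbiz (chr16:55811375-55838899, minus strand) was at 2.47 to 207 CPM in KC blood (median 55.8) and at 2.33 to 416 CPM in KC pancreas (median 124). Only Sample_302P8 (30 weeks) lay above the highest blood library on CPM; 4 of 12 did so on TMM-scaled totals. In blood, both 4-week libraries were low, at 7.45 and 2.47 CPM, and both 30-week libraries were high, at 159 and 207 CPM. In pancreas, the 3 libraries of 13 weeks already spanned 2.33 to 143 CPM. WT pancreas was at 3.51 and 45.8 CPM and WT blood at 40.5 CPM.

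Nfkbid (chr7:30421732-30428746, plus strand) was at 0.273 to 150 CPM in KC blood with a median of 6.54, and at 0.263 to 108 CPM in KC pancreas with a median of 24.3. The blood maximum was 1 library, Sample_205B8 (20 weeks), and the next blood library was at 28.1 CPM. In pancreas, 2 of 12 libraries were below 1 CPM, and the 4 highest, at 42.7 to 108 CPM, came from 4, 9 and 13 weeks. The groups overlapped, with no pancreas library above the blood maximum. WT blood was at 8.32 CPM and WT pancreas at 9.59 and 0.718 CPM.

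Among the subunits, Nfkb1 and Rel were present in every library. Nfkb1 (chr3:135584655-135691547, minus strand) ranged from 32.7 to 195 CPM in KC blood (median 80.2) and from 29.5 to 282 CPM in KC pancreas (median 78.5). Rel (chr11:23736847-23770970, minus strand) ranged from 5.73 to 423 CPM in KC blood (median 151) and from 11.9 to 589 CPM in KC pancreas (median 144). For each of these genes, 2 of 12 pancreas libraries lay above the blood maximum on CPM, and the ranges otherwise overlapped. On TMM-scaled totals, 0 of 12 did for Nfkb1 and 2 of 12 for Rel. The ratio of medians was 0.979 on CPM and 1.36 on TMM-scaled totals for Nfkb1. For Rel it was 0.956 and 2.03, so the direction of both genes again depends on the scaling.

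Nfkb2 and Relb, the subunits of the alternative pathway, were near 0 in many libraries and well above it in others. Nfkb2 (chr19:46304320-46312385, plus strand) was below 1 CPM in 12 of 24 libraries, and it reached 56.5 and 50.1 CPM in 2 blood libraries of 13 weeks and 37.5 CPM in 1 pancreas library of 30 weeks. Its medians were 0.696 CPM in KC blood and 0.837 CPM in KC pancreas. Nfkb2 overlaps the annotated genes AC114539.1 and Psd, both on the opposite strand, and the sources do not say whether strand was used in counting. Relb (chr7:19606217-19629438, minus strand) was below 1 CPM in 15 of 24 libraries, among them 9 of 12 KC pancreas and 6 of 9 KC blood libraries, and had 0 counts in Sample_302B8. The highest Relb level in the series was 25.8 CPM in the 30-week WT pancreas library, followed by 11.1 CPM in the 9-week KC pancreas library Sample_95P8. All 3 WT libraries lay at or above 5.03 CPM.

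Birc3 (chr9:7848699-7873186, minus strand) ranged from 2.16 to 83.6 CPM in KC blood (median 29.8) and from 2.07 to 176 CPM in KC pancreas (median 44.8). Sample_43P8, Sample_131P8 and Sample_302P8, of 4, 13 and 30 weeks, lay above the blood maximum at 110, 104 and 176 CPM, and the other 9 overlapped with blood. WT blood was at 58.8 CPM, and WT pancreas at 11.7 and 61.1 CPM.

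Bcl2a1b (chr9:89199209-89207827, plus strand) was low in blood and higher in most pancreas libraries. In KC blood it was at 0.182 to 3.59 CPM with a median of 0.696, and 6 of 9 libraries were below 1 CPM. In KC pancreas it was at 9.69, 7.65 and 69.6 CPM at 4 weeks, 2.10 and 10.1 at 9 weeks, 7.85, 77.0 and 0.543 at 13 weeks, 3 and 0.618 at 20 weeks, and 9.19 and 3.78 CPM at 30 weeks. The pancreas median was 7.75 CPM, 11.1 times that of blood. Of the 12 pancreas libraries, 8 lay above the blood maximum on CPM, 10 on TMM-scaled totals and 7 when the ribosomal transcript Rn45s and Lars2 were left out of the total. WT blood was at 2.33 CPM and WT pancreas at 3.32 and 0.399 CPM, so the 30-week WT pancreas library was lower than the WT blood library. Bcl2a1b has near-identical copies, and its counts may be shared with them: Bcl2a1d had 98 counts over all KC pancreas libraries and 26 over KC blood, and Bcl2a1a had 80 and 5. It also overlaps the annotated gene Gm29094 on the same strand.

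Per kilobase of annotated exon, which allows levels of different genes to be set side by side, the order in KC pancreas was led by Tnfaip3 at a median of 47.3 CPM per kb. Nfkbia followed at 34.4, Nfkbiz at 24.7 and Rel at 19.3 CPM per kb. In KC blood the order was led by Nfkbia at 35.9 CPM per kb, followed by Rel at 20.2, Nfkbiz at 11.1 and Tnfaip3 at 9.17 CPM per kb. Nfkb2 and Relb were last in both tissues, at 0.183 and 0.0689 CPM per kb in pancreas and 0.152 and 0.131 in blood. The ranges of neighbouring members in both orders overlapped.

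**Figure D2:**
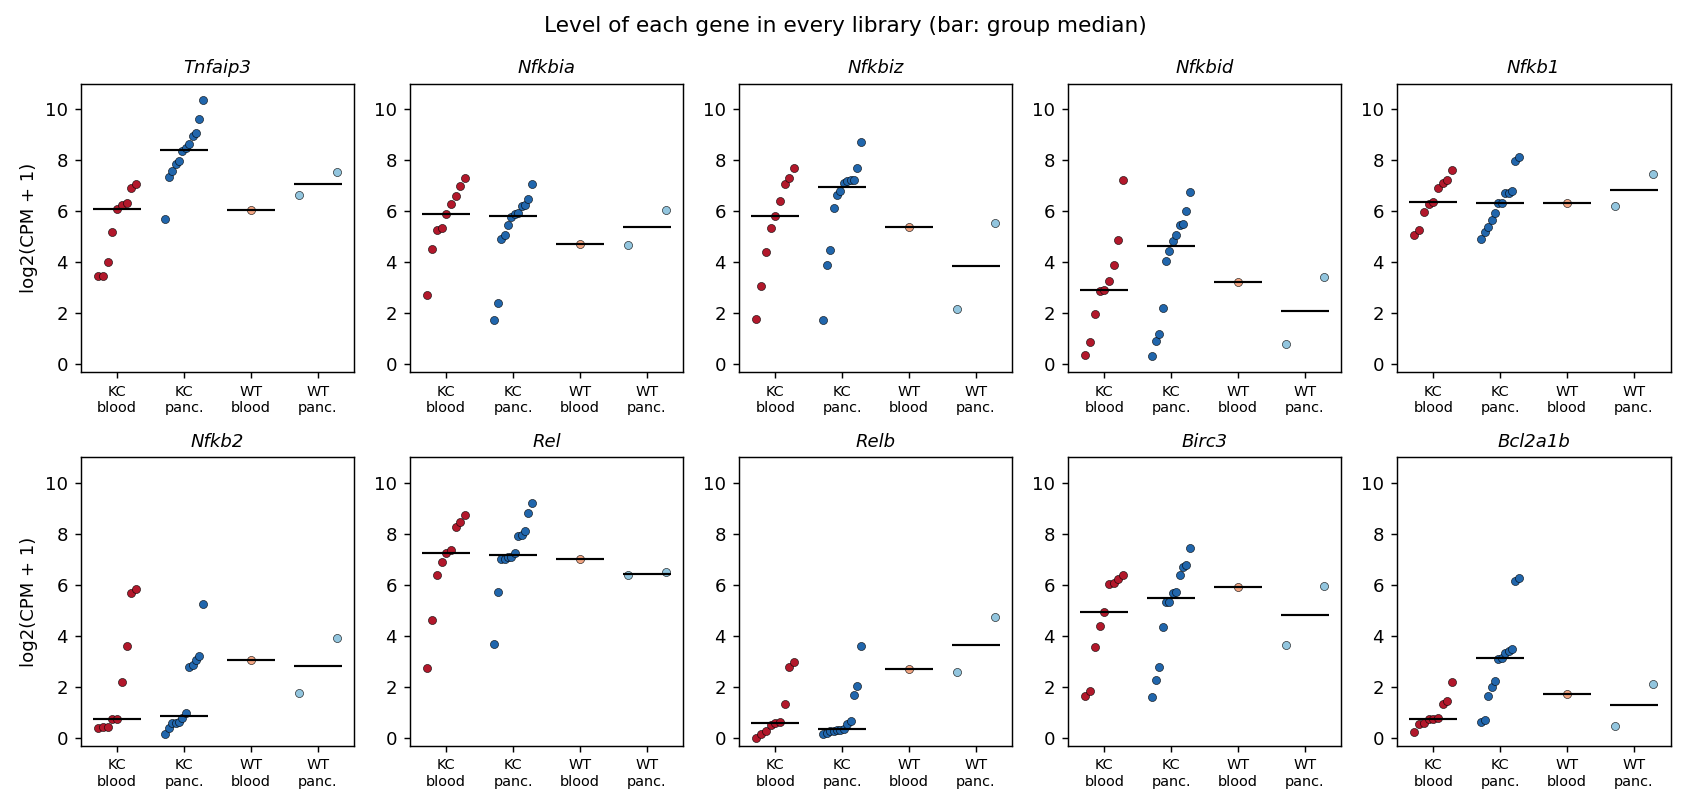
Levels of the 10 members in every library on a log2(CPM + 1) axis, by group, with 1 point per library and a bar at the group median (KC blood 9 libraries, KC pancreas 12, WT blood 1, WT pancreas 2). Tnfaip3 and Bcl2a1b lie higher in most KC pancreas libraries than in KC blood (11 and 8 of 12 above the blood maximum), and the other members overlap.

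The extremes of the pancreas group fell in few libraries. Sample_302P8, of 30 weeks, held the highest pancreas level of 5 members: Tnfaip3, Nfkbiz, Nfkb1, Rel and Birc3. The summed level of the 10 members was also highest there, at 2857 CPM against a pancreas median of 944 CPM. This library also had the highest sums of macrophage genes (567 CPM) and of immediate early genes (14474 CPM) in the KC pancreas group, and the part of these in the levels was not tested. Sample_132P8, of 13 weeks, held the lowest level of Tnfaip3, Nfkbiz, Rel and Birc3, the lowest sum (346 CPM), and at the same time the highest Bcl2a1b level. Its TMM factor was 0.464, the lowest of the pancreas libraries, so scaled totals raise its values. In blood, Sample_42B8 held the lowest level of 5 members and the lowest sum, 77.9 CPM.

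The question which genes of the set differ between infiltrating and circulating CD8+ T cells of KC mice was addressed across all genes with edgeR's quasi-likelihood fit and age as a factor. The log2 fold change of pancreas over blood was 3.15 ± 0.52 (SE) for Tnfaip3 and 3.81 ± 1.24 for Bcl2a1b. Nfkbid was at 1.63 ± 1.13, Nfkbiz at 1.54 ± 0.68, Nfkb2 at 1.16 ± 1.52 and Birc3 at 1.07 ± 0.84. Nfkb2 lay within 1 SE of 0, as did the remaining 4 members: Rel at 0.32 ± 0.55, Nfkb1 at 0.13 ± 0.61, Relb at -0.07 ± 1.52 and Nfkbia at -0.24 ± 0.71. Of the 11059 genes tested, 0.0904% were called at an adjusted p under 0.05 (8 higher and 2 lower in pancreas), and 1 of the 10 members, Tnfaip3, was among them. The members were selected on this contrast, so nothing is read from that count. The median log2 fold change was 1.12 over the members and -0.12 over all genes tested, and 8 of 10 members had a positive value against 45.4% of all genes. With library size alone as the scale, the median of all genes moved to -0.41 and 7 members were positive. Without Sample_132P8 the Bcl2a1b estimate moved to 2.76.

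**Figure D3:**
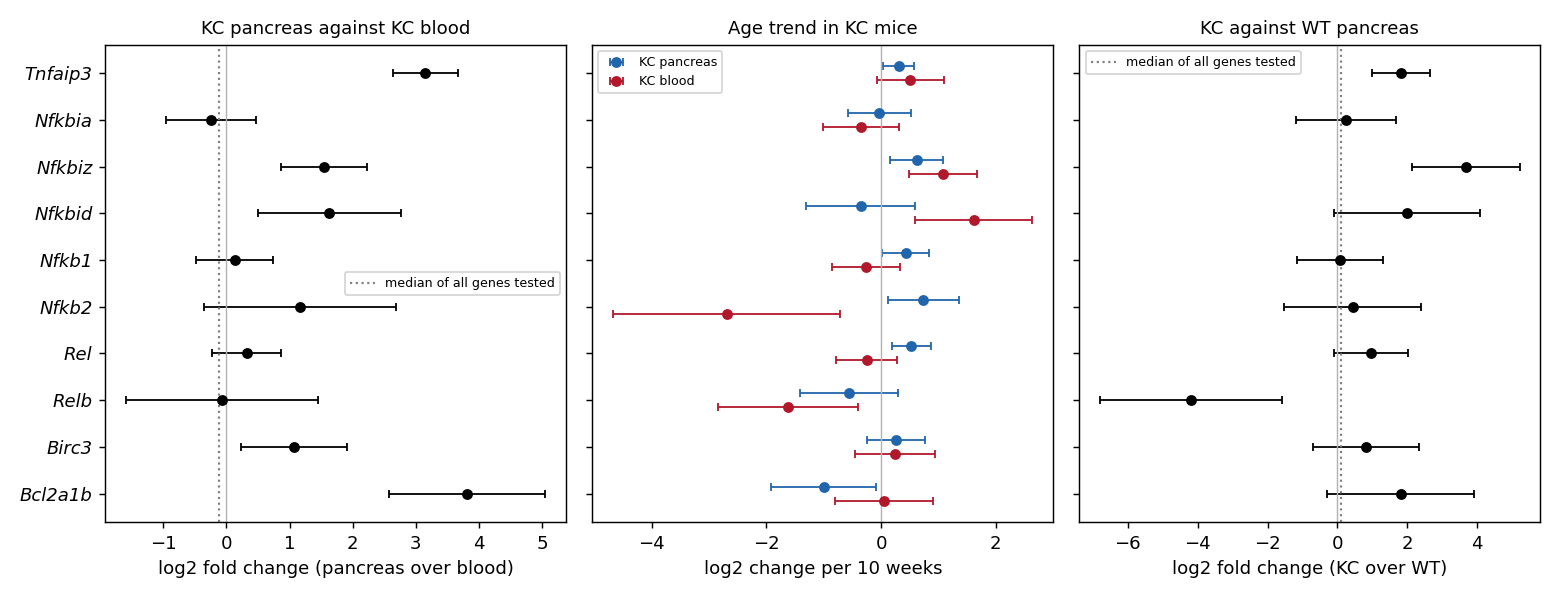
Estimated log2 differences of the 10 members, with points as estimates and bars as 1 standard error: KC pancreas over KC blood (left), change per 10 weeks of age in KC pancreas and KC blood (middle) and KC over WT pancreas (right); dotted lines are the median of all genes tested. On the left, Tnfaip3 (3.15) and Bcl2a1b (3.81) lie farthest from 0, and Nfkbia (-0.24) and Relb (-0.07) lie near it.

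The titles of 9 pairs of KC libraries, 1 from pancreas and 1 from blood, share a number. On log2(CPM + 1), Tnfaip3 was higher in pancreas in 8 of 9 pairs, with differences from -0.55 in the pair of Sample_132P8 to 5.63 in that of Sample_43P8 and a median of 2.55. On TMM-scaled totals it was higher in 9 of 9. Bcl2a1b was higher in 8 of 9 pairs on both scales, with a median difference of 1.90 and the largest value, 5.55, in the pair of Sample_132P8. For the other members 3 to 6 of 9 pairs were higher in pancreas on CPM, with Nfkbia at 3, Nfkbiz and Birc3 at 6, and the remaining 5 members at 5. The same pair gave the lowest difference of Tnfaip3, Nfkbiz, Rel, Relb and Birc3.

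Within each carry-over set, Tnfaip3 also lay higher in KC pancreas than in KC blood. In the first set it was at 50.9 to 792 CPM in 6 KC pancreas libraries and at 9.91 to 15 CPM in 3 KC blood libraries. In the second set it was at 232 to 1309 CPM in 6 KC pancreas and at 35.0 to 132.4 CPM in 6 KC blood libraries. The KC libraries of the 2 tissues thus did not overlap inside either set. The 3 low blood libraries, both of 4 weeks and 1 of 13 weeks, are the KC blood libraries of the first set, and these also held summed acinar RNA of 84.5 to 91.1 CPM, against at most 1.58 CPM in the other blood libraries. The WT blood library is in the first set too, with 91.2 CPM of acinar RNA and Tnfaip3 at 66.0 CPM, above the lowest KC pancreas library of that set (50.9 CPM). Bcl2a1b was at 0.543 to 77.0 CPM in pancreas and 0.182 to 0.712 CPM in blood in the first set, and at 0.618 to 10.1 CPM and 0.463 to 3.59 CPM in the second, so the tissues overlapped in both sets. Estimated in each set alone, the log2 fold change of Tnfaip3 was 4.25 and 2.80, and that of Bcl2a1b 5.68 and 1.69.

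Age was compared within each tissue as a slope per 10 weeks. In KC pancreas, no member had a slope beyond 2 SE of 0. Bcl2a1b had the slope farthest from 0, at -1.0 ± 0.92 (SE), followed by Nfkb2 at 0.74 ± 0.62, Nfkbiz at 0.62 ± 0.46, Relb at -0.56 ± 0.86 and Rel at 0.53 ± 0.34. Tnfaip3 was at 0.31 ± 0.27, and its levels followed no order of age. On CPM the 13-week libraries held its 3 lowest pancreas levels, and the 30-week library Sample_302P8 its highest. On TMM-scaled totals, the 13-week library Sample_133P8 was at 305, above the pancreas median of 297, and Sample_302P8 was again the highest, at 1280. Without that library the Tnfaip3 slope was -0.12. In the fit of all 9555 genes, 0.293% were called, none of the 10 members among them. With the carry-over set as a term, the slope of Bcl2a1b was 0.40.

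In KC blood the slopes of Nfkbiz (1.08 ± 0.60), Nfkbid (1.62 ± 1.02), Nfkb2 (-2.69 ± 1.98) and Relb (-1.62 ± 1.22) were the farthest from 0, and Tnfaip3 was at 0.51 ± 0.58. Of 9933 genes tested, 0% were called by edgeR, while 870 had an unadjusted p under 0.05 and DESeq2 called 317, with 1 of the 10 members, Nfkb2, among them. The difference of the trends between pancreas and blood was largest for Nfkb2, at 3.41 ± 2.25, and for Nfkbid, at -2.0 ± 1.45. Of 11059 genes, 0.0543% were called for that difference, with 0 of the 10 members.

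**Figure D4:**
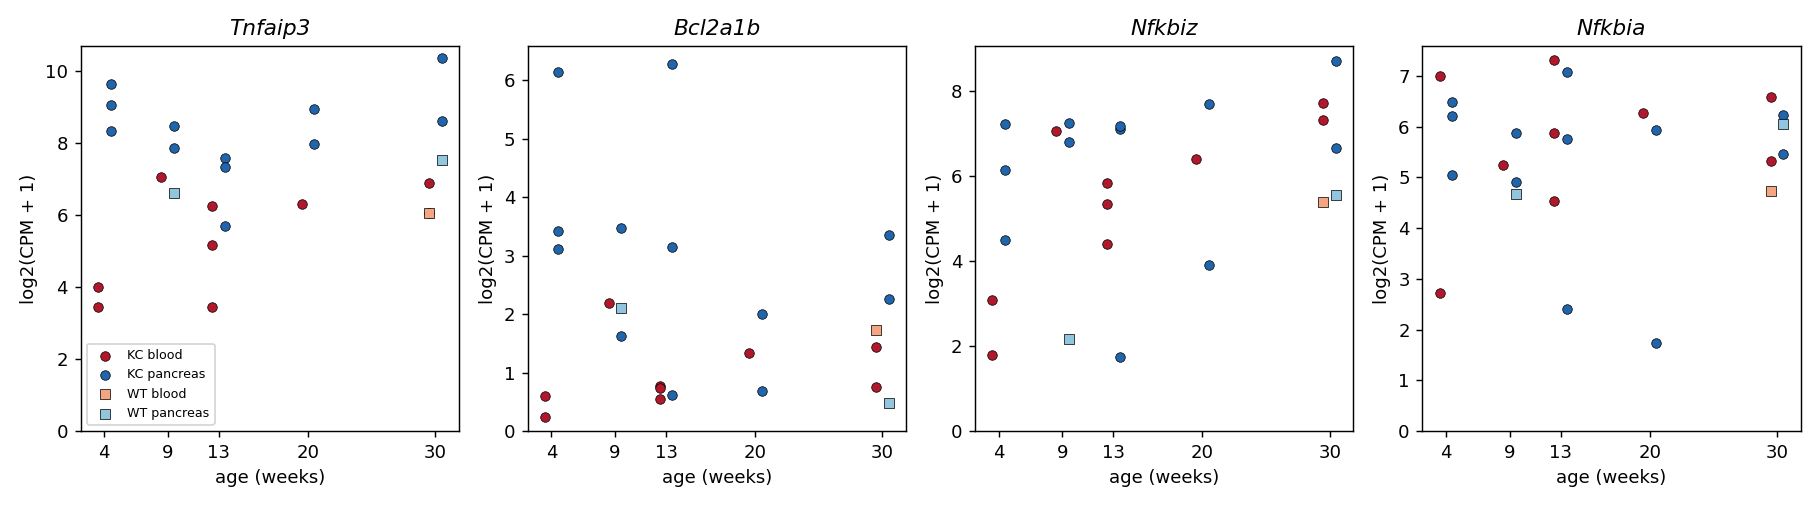
Levels of Tnfaip3, Bcl2a1b, Nfkbiz and Nfkbia against age in weeks on a log2(CPM + 1) axis, with 1 point per library (circles KC, squares WT; the tissues are drawn slightly apart at each age). Tnfaip3 is above blood of the same age in the KC pancreas libraries at 4, 9, 20 and 30 weeks, and at 13 weeks Sample_132P8 (50.9 CPM) lies below the highest blood library (75.0 CPM).

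The comparison of KC with WT rests on 2 WT pancreas libraries and 1 WT blood library, all of them in the first carry-over set. The KC libraries of the same tissues and ages (9 and 30 weeks in pancreas, 30 weeks in blood) are all in the second set. Strain and carry-over set therefore cannot be told apart in this comparison. In pancreas, with age as a factor, the log2 fold change of KC over WT was 1.83 ± 0.83 (SE) for Tnfaip3 and 3.67 ± 1.54 for Nfkbiz, the members with the largest values relative to their errors. Relb was at -4.19 ± 2.60, the only member with a negative value, and Nfkbid at 1.98 ± 2.09 and Bcl2a1b at 1.81 ± 2.11 had errors larger than their estimates. Rel (0.95 ± 1.06), Birc3 (0.81 ± 1.51), Nfkb2 (0.44 ± 1.96), Nfkbia (0.25 ± 1.43) and Nfkb1 (0.07 ± 1.23) lay within 1 SE of 0. Of 10829 genes tested, 0.194% were called, with 0 of the 10 members. Acinar RNA differed between these groups at the same time, with summed levels of 4656 and 1236 CPM in the WT pancreas libraries against 0.103 to 59.0 CPM in the KC pancreas libraries of 9, 20 and 30 weeks, 1955 to 10959 CPM in those of 4 weeks and 112 to 506 CPM in those of 13 weeks, and its part in the differences was not tested.

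In blood, the fit gave Relb at -4.66 ± 3.16, Nfkb2 at -3.49 ± 2.48 and Nfkbiz at 2.11 ± 2.38, and Tnfaip3 at 0.40 ± 2.28. Of 12496 genes, 0% were called by edgeR, with 0 of the 10 members; 354 genes had an unadjusted p under 0.05, and DESeq2 called 4, none of them a member. Within the WT mice the 30-week pancreas library held 183 CPM of Tnfaip3 from 2291 counts and the blood library 66.0 CPM from 1104 counts, a log2 ratio of 1.45 with a prior of 1 CPM. Nfkbia (1.33) and Relb (2.04) were also higher in that pancreas library, while Nfkbid (-2.44, from 9 counts) and Bcl2a1b (-1.25, from 5 counts) were lower. With 1 library a side, these ratios have no replicate check.

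The members did not move as a block across libraries. Over all 24 libraries, the median Pearson correlation of log2(CPM + 1) between the 45 pairs of members was 0.10, within KC pancreas 0.17 (12 libraries) and within KC blood 0.27 (9 libraries). The highest values in pancreas were 0.83 for Rel and Birc3, 0.78 for Tnfaip3 and Rel, and 0.69 for Tnfaip3 and Nfkbiz. Sample_132P8 and Sample_302P8 were the libraries farthest from the Tnfaip3 median. Without them, Tnfaip3 and Rel were at 0.27 and Tnfaip3 and Nfkbiz at 0.08. Both values of r thus depended largely on these libraries, while Rel and Birc3 stayed at 0.67. Spearman's rho over all 12 libraries was 0.59 for Tnfaip3 and Rel, 0.49 for Tnfaip3 and Nfkbiz, and 0.83 for Rel and Birc3. In blood, Tnfaip3 correlated with Birc3 at 0.82 (Spearman's rho 0.67) and with Nfkbiz at 0.79 (0.73). Without Sample_42B8 and Sample_131B8 the values of r were 0.76 and 0.92. Sample_43B8, the remaining KC blood library of the first carry-over set, stayed in. It held Tnfaip3 at 15 CPM and the lowest blood levels of Birc3 (2.16 CPM) and Nfkbiz (2.47 CPM). These values therefore do not show that the relations hold within the second set. Tnfaip3 and Nfkbia were at 0.03 in pancreas and 0.07 in blood. The points share library scale and the carry-over sets.

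**Figure D5:**
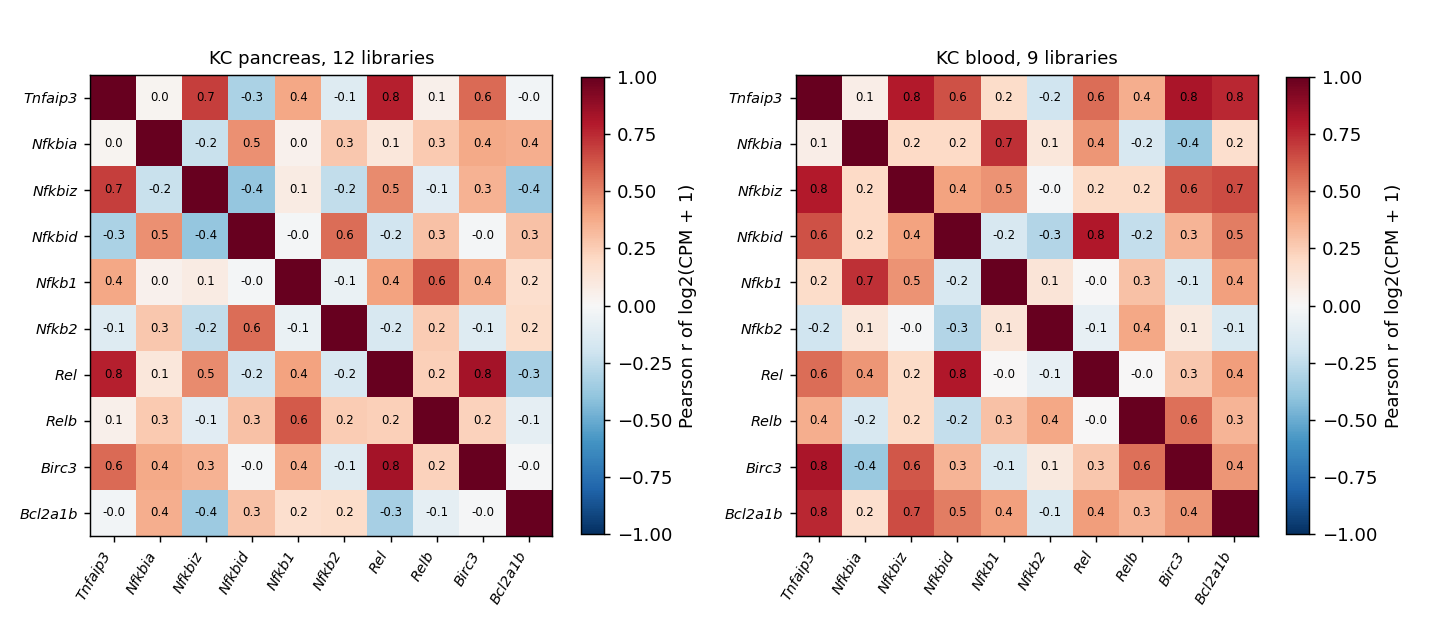
Pearson correlation of log2(CPM + 1) between the 10 members across the 12 KC pancreas libraries (left) and the 9 KC blood libraries (right), with r printed in each cell and coloured from -1 (blue) to 1 (red). Tnfaip3 has high values with Rel and Nfkbiz in pancreas (0.78 and 0.69) and with Birc3 and Nfkbiz in blood (0.82 and 0.79), and values near 0 with Nfkbia in both.

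The genes most like a member were taken by the same measure over 24 libraries among 5251 genes with a median of at least 10 CPM. For Tnfaip3 they were Rgs2 (r = 0.92), a regulator of G protein signalling, Nr4a3 (0.83), an orphan nuclear receptor, and Dusp1 (0.82), a MAP kinase phosphatase. All 3 belong to the immediate early and dissociation stress list used here. Within KC pancreas the values were 0.81, 0.78 and 0.95, and without Sample_132P8 and Sample_302P8 they were 0.69, 0.68 and 0.83. They thus depended less on these 2 libraries than the values of Tnfaip3 with Rel and Nfkbiz did. In KC blood they were 0.88, 0.62 and 0.19. For Rel, the second member by median level, the most alike genes were Heg1 (0.82), Capn7 (0.80) and Dennd4a (0.78), and without Sample_42B8 and Sample_132P8 the value for Heg1 was 0.58.

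The immediate early list itself holds 34 genes, none of which is a member. It was chosen with earlier results of these data known, so its counts are given as a description. edgeR's quasi-likelihood test with Benjamini-Hochberg adjustment called 6 of the 34 higher in KC pancreas than in KC blood and 0 lower, beside 0.0904% called of all genes tested. Of the 34, 30 had a positive value (all but Ier2, Klf2, Klf4 and Socs3), beside 45.4% of all genes, and the median log2 fold change was 2.46. Rgs2 (3.69 ± 0.60, adjusted p = 0.000771), the early growth response factor Egr1 (3.92 ± 0.69, adjusted p = 0.00223), and the AP-1 subunits Fosb (5.26 ± 1.0, adjusted p = 0.00755) and Fos (5.50 ± 1.07, adjusted p = 0.00771) were among the 6 called. Its summed level ranged from 4623 to 14474 CPM in KC pancreas and from 4318 to 6765 CPM in KC blood, so the sums overlapped. Tnfaip3 correlated with this sum at 0.59 within pancreas and 0.11 within blood. Whether the genes of this list and Tnfaip3 were raised in the tissue or during its dissociation was not tested.

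Of 145 other genes of the pathway, in 6 lists, 123 were tested between the tissues, and 0 were called by edgeR over all genes. Unadjusted, 8 of the 123 had an edgeR p under 0.05, beside 9.85% of all genes tested. DESeq2 called 4, beside 480 of all genes. Of the 123, 71 had a positive value, and their median log2 fold change was 0.13, beside -0.12 for all genes. The other subunit and inhibitor genes lay near 0: Rela, which encodes p65, at 0.02 ± 0.83 (adjusted p = 0.998), Nfkbib at 0.14 ± 0.91, Nfkbie at 0.36 ± 1.14 and Bcl3 at 0.29 ± 1.10. The kinase genes Ikbkb and Chuk were at -0.57 ± 0.94 and 0.35 ± 0.74. Tnf, a ligand and target of the pathway, was at 0.39 ± 1.33 and at a median of 0.548 CPM in pancreas and 0.514 CPM in blood. These values miss the threshold, and with errors of about 1 on the log2 scale for most of them they do not show that the levels were alike.

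Among the survival genes outside the set, 0 of 24 tested were called by edgeR, 0 had an unadjusted p under 0.05, and their median was -0.02. Bcl2, at medians of 506 CPM in pancreas and 837 CPM in blood, was at -0.06 ± 0.39 (edgeR adjusted p = 0.983), and Mcl1, at medians of 1163 and 1264 CPM, at 0.08 ± 0.35 (adjusted p = 0.972). Bcl2a1d, the near-identical copy of Bcl2a1b, was at 2.70 ± 1.79 (adjusted p = 0.669), and Bcl2a1a had too few counts to be tested. In the remaining comparisons edgeR called 0 of these other pathway genes. In the age trends, 8 of 112 in pancreas and 10 of 114 in blood had an unadjusted edgeR p under 0.05, beside 8.95% and 8.76% of all genes. DESeq2 called 5 and 2, beside 422 and 317 of all genes. For KC against WT pancreas, 6 of 126 did, beside 5.03% of all genes, and DESeq2 called 1, beside 163 of all genes. For the difference of the trends, 11 of 123 did, beside 8.33% of all genes.

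RNA of other cell types moved with some members. In the KC pancreas libraries, Bcl2a1b, which myeloid cells also express, correlated with the summed macrophage list at 0.66, and at 0.67 without the 2 libraries with its highest levels. In KC blood the highest Bcl2a1b level (3.59 CPM) and the highest macrophage sum (414 CPM) fell in the same library, Sample_95B8. Sample_131P8, with the lowest macrophage sum of the pancreas group (2.43 CPM), held Bcl2a1b at 7.85 CPM and Tnfaip3 at 192 CPM, both above every KC blood library. Sample_133P8, with a macrophage sum of 3.47 CPM, held Bcl2a1b at 0.543 CPM and Tnfaip3 at 161 CPM. Of the 12 macrophage genes, Lyz2 (median 19.6 CPM) and Itgam were at 0 in none of the 12 KC pancreas libraries, C1qc (up to 186 CPM) in 2, Adgre1 in 5 and C1qa in 9, and the list had 7 of 8 tested genes with a positive value between the tissues, 1 with an unadjusted p under 0.05 and 0 called by edgeR. Tnfaip3 correlated with the macrophage sum at 0.39 within pancreas (0.76 without Sample_132P8 and Sample_302P8) and at 0.58 within blood. The part of macrophage RNA in the levels of Bcl2a1b and Tnfaip3 was not tested. Blood-derived RNA went the other way: the platelet gene Ppbp (-5.14 ± 0.74, adjusted p = 0.000115) and the erythroid gene Alas2 (-4.12 ± 0.90, adjusted p = 0.0358) were the called genes of their lists, both lower in KC pancreas in edgeR's test.

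Acinar genes were called with age and strain, and fibroblast genes with age. In KC pancreas, edgeR called 11 of 18 acinar genes lower with age, led by Ctrl (-6.63 ± 1.06, adjusted p = 0.0110), Cel (-6.67 ± 1.15, adjusted p = 0.0110), Rnase1 (-6.46 ± 1.13, adjusted p = 0.0110) and Cela3b (-6.56 ± 1.16, adjusted p = 0.0111). It called the fibroblast genes Col3a1 (-6.02 ± 1.21, adjusted p = 0.0225) and Bgn (-5.32 ± 1.11, adjusted p = 0.0342) lower as well. With the carry-over set as a term, 0 genes were called in this trend, and the 4-week and 13-week libraries that held most of this RNA are all in the first set. Between KC and WT pancreas edgeR called 15 of 21 acinar genes lower in KC, led by Ctrb1 (-16.01 ± 1.17, adjusted p = 1.36e-11), Rnase1 (-14.85 ± 1.61, adjusted p = 2.50e-07), Cel (-13.68 ± 1.87, adjusted p = 4.23e-05) and Cpa1 (-13.64 ± 1.90, adjusted p = 4.57e-05). At the WT ages, 9 and 30 weeks, every KC pancreas library is in the second set and both WT libraries are in the first. These calls therefore cannot be assigned to strain rather than carry-over set. Tnfaip3 correlated with the acinar sum at -0.05 within KC pancreas and at -0.90 within KC blood, where the 3 libraries of the first set held both the high acinar sums and the low Tnfaip3 levels. Bcl2a1b correlated with it at 0.58 in pancreas and -0.52 in blood. The part of this RNA in the slopes and strain differences of the members was not tested.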

How the data were processed

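RNA-seq counts per gene were deposited by the authors as 1 table for each of 24 libraries; per the submitters' processing notes TopHat, SAMtools, HTSeq and DESeq were used with the mm10 build, and versions, annotation and use of strand are not given in the sources used here. The 5 tallies of reads outside genes, 67.5% to 88.3% of the reads in each table, were left out. Libraries were grouped by the tissue and age labels. CPM was computed over counts in genes, and differences with edgeR 4.0.16 in R 4.3.3 (robust quasi-likelihood F-test, two-sided, after TMM scaling; low genes removed by filterByExpr at min.count 10; Benjamini-Hochberg over all genes tested, threshold 0.05). Standard errors are the log2 estimate divided by the square root of its F value. Fits used age as a factor between tissues and strains and age as a number for trends. Scripts were tested on simulated data.

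The members and gene lists were chosen with earlier results of these data known. All 10 members are named. Of the other lists, the genes called over all genes were named (up to 4 per list and direction), with 11 subunit, kinase, ligand and survival genes whatever their values. Likeness is Pearson's r of log2(CPM + 1) over 24 libraries among genes with a median of at least 10 CPM. Alternatives were RLE scaling, library size only, no filter, DESeq2 1.42.0, other age terms, the carry-over set, the title number as a block, other CPM totals, other priors and leaving out libraries. A lone library in an arm is assumed to vary like the others. Positions are from GENCODE M21 and promoter sequences from RefSeq (GRCm38.p6).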

Additional observations from a re-analysis of the deposited data

Results flagged for a closer look

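Of the 10 members in the 9 KC blood libraries, 2 had a library whose gap to the nearest of the others took up more of the group's range than Dixon's 95% value allows. For normally distributed values chance alone gives about 1 in 20 such groups. CPM is skewed, so that rate does not hold here. The members were selected on these levels, so both are given as a description. Nfkbid was at 150 CPM in Sample_205B8 (20 weeks), with the next library at 28.1 CPM. Bcl2a1b was at 3.59 CPM in Sample_95B8 (9 weeks), with the next library at 1.72 CPM, and the same library held the highest macrophage sum of the blood group, whose part in the value was not tested.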

How the results depend on the processing

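In KC pancreas against KC blood, the log2 fold change of Tnfaip3 was positive in all 35 alternatives and ranged from 2.68 with library size only to 4.25 in the first carry-over set alone. Of the 10 members, 1 was called, 2 with DESeq2 and 2 without an age term (Bcl2a1b in addition), and 0 in the first and 0 in the second carry-over set alone, where fewer libraries were fitted. Over the single libraries left out, 1 member was called each time. Nfkbiz, Rel, Birc3 and Bcl2a1b also kept a positive value in all 35 alternatives, and the sign of the other 5 members changed in 1 to 12 of those in which they were tested (12 for Relb). All genes called numbered 10, 34 without a filter, 480 with DESeq2, 65 without an age term, 54 with age as a number, 6 and 2 in the carry-over sets alone, 4 without the 4-week libraries, and 6 to 21 over the single libraries left out. In the age trend in KC pancreas they numbered 28, 686 without a filter, 422 with DESeq2, 0 with the carry-over set as a term and 10 to 31 over the single libraries left out. In the age trend in KC blood they numbered 0, 102 without a filter, 317 with DESeq2 and 0 to 12 over the single libraries; in KC against WT pancreas 21, 163 with DESeq2 and 4 to 25; in KC against WT blood 0, 4 with DESeq2 and 0 to 2; for the difference of the trends 6, 0 with RLE scaling and 1 with the carry-over set as a term. Of the other pathway genes, edgeR called 0 between the tissues, 1 without an age term, and DESeq2 called 4; in the age trend in KC pancreas 2 were called without a filter, 5 by DESeq2, and 0 to 1 over the single libraries left out (the 1 without Sample_302P8). DESeq2 called 2 of them and 1 member in the age trend in KC blood, and 1 of them in KC against WT pancreas. The cause of these differences was not tested. Slopes and strain differences are less stable: 4 members in pancreas and 5 in blood kept the sign of the slope in every alternative that tested them (up to 17 and 14), and 6 and 5 members that of the KC against WT value. With title numbers as a replicate block over the 9 pairs, Tnfaip3 was at 3.20, with 1 member and 14 genes called, against 3.24, 1 and 8 over the same 18 libraries without the block, an alternative chosen after seeing the data. Deviations of same-numbered libraries from their group and age means correlated at -0.055 to 0.007 in the 7 pairs that could be checked, so the numbers were not taken to pair the libraries. Depth limits Relb, Nfkb2 and Bcl2a1b, which had 0 to 13 counts in many libraries.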
